A study of Mus musculus with 35 samples.

Results

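The proteasome subunit genes were taken by name, as every symbol in the count tables that reads Psma, Psmb, Psmc, Psmd or Psme followed by digits only. This gave 43 of the 54735 listed genes. Of these, 42 passed a level of 1 CPM (a gene's counts scaled to its library's total, while the CPM levels given here are further corrected by edgeR's TMM factors) in at least 5 of the 35 libraries, and they are the members described here among the 13421 genes tested. Psmb11, the thymus-linked beta subunit, had 0 counts in all 35 libraries and stands in no comparison. The rule itself used no measured value other than this level, although the members were chosen with earlier results of these data known. The series holds bulk RNA-seq of macrophages sorted from the livers of male C57BL/6J mice fed a standard diet (SD) or a Western diet (WD) rich in fat, cholesterol and sugar. Per the study's methods the diets were given from 5 weeks of age, and weeks here count time on the diet. Resident Kupffer cells (ResKCs), sorted as CLEC4F+ TIM4+, comprised 7 samples on SD and 5 on WD at 12 weeks, and 6 on each diet at 24 weeks. Monocyte-derived Kupffer cells (moKCs), sorted as CLEC4F+ TIM4-, and CLEC4F- macrophages (CLEC4F- macs), a mixed population, came from WD mice at 24 weeks with 5 and 6 samples. No SD moKCs or SD CLEC4F- macs were compared, so the populations could only be set against each other on the WD. For the 5 samples titled as 12-week WD the diet field of the labels names the standard diet, and the title and description were followed. Total counts ran from 11568590 to 15163845 per library, so that 3 counts corresponded to 0.193 to 0.263 CPM. Sample names in the deposited headers followed 2 schemes, whose meaning is not given. All 6 SD ResKC libraries at 24 weeks and all 5 WD libraries at 12 weeks carried the first scheme, whereas the other groups mixed both. All 7 Kupffer cell markers, Clec4f and Timd4 among them, were higher in ResKCs than in CLEC4F- macs, and all 5 markers of monocytes or CLEC4F- macs were lower. Replicate 4 of the CLEC4F- macs stood apart. Its Kupffer cell markers summed to 12220 CPM, against 1296 to 5558 CPM in the other 5 and at least 17070 CPM in moKCs, and its monocyte or CLEC4F- mac markers to 443.8 CPM, against 994.4 to 1608 CPM. Comparisons of the members with CLEC4F- macs are therefore also given without it, while those of other genes are given only with it. The labels do not tie samples to separate animals, so p-values measure the spread between samples.

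The proteasome is the barrel-shaped protease that degrades proteins tagged with ubiquitin. Its 20S core is built from outer rings of alpha subunits, which gate the entry, and inner rings of beta subunits, of which Psmb5, Psmb6 and Psmb7 carry the cutting sites. The 19S particle sits on the core, and its ATPases (Psmc genes) unfold substrates. Some of its other subunits (among the Psmd genes) bind and remove ubiquitin. Psmd5, Psmd9 and Psmd10 encode chaperones that assemble the base of the particle, and they are counted here with the 19S non-ATPases. Interferons induce Psmb8, Psmb9 and Psmb10, which replace Psmb5, Psmb6 and Psmb7 in the immunoproteasome, and Psme1 and Psme2, which form the PA28 activator. Peptides that the proteasome releases are displayed on MHC class I molecules.

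All parts of the particle were expressed in every group, and the immunoproteasome genes were among the most abundant. Per kilobase of principal transcript in SD ResKCs at 24 weeks, the median level of the 5 immunoproteasome genes was 150 CPM per kb. The medians were 92.6 for the constitutive beta genes, 76.7 for the alpha genes, 71.0 for the ATPases and 53.2 for the non-ATPases. Psma6, an alpha ring subunit, was the highest of all members at 294 CPM per kb. Psmb8 stood at 142 against 53.9 for Psmb5, the chymotrypsin-like subunit it replaces, and Psmb10 at 150 against 28.8 for Psmb7, which carries the trypsin-like site. Psmb9, at 142, was close to Psmb6, the caspase-like subunit, at 156. The lowest level was that of Psma8, the testis-linked alpha subunit, at 4.30 CPM per kb.

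The promoters of 4 members on which the comparisons turn are shown so that a reader can see the DNA ahead of their starts. They are Psma6 and Psmb10, which fell with the WD at 24 weeks, and Psmb6 and Psmd14, which stood lower in ResKCs when set against CLEC4F- macs. Sequences are from RefSeq on GRCm38.p6 and run 5′ to 3′ on the gene's strand. Capitals mark a match to 1 of the 5 motifs described after them. Psma6 lies at chr12:55398575-55398774 on the plus strand, Psmb10 at chr8:105938445-105938642 on the minus strand, Psmb6 at chr11:70525107-70525356 on the plus strand and Psmd14 at chr2:61711444-61711693 on the plus strand.
Psma6: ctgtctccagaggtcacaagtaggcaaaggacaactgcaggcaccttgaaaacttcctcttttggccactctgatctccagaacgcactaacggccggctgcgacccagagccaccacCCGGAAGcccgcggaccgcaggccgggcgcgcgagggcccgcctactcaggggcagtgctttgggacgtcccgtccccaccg
Psmb10: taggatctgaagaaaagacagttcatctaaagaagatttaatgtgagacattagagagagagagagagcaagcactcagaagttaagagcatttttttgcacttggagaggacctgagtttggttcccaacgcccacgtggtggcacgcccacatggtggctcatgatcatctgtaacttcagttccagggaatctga
Psmb6: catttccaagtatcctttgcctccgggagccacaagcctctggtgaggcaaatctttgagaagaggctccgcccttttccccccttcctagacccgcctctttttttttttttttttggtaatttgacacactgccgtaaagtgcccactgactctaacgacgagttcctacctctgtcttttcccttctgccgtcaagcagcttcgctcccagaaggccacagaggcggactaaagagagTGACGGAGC
Psmd14: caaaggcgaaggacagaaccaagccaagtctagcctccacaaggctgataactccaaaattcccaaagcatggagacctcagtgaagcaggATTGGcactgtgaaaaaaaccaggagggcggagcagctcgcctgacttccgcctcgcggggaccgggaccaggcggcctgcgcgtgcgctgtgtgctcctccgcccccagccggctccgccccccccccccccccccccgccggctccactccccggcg
The windows hold up to 250 bases upstream and stop where an annotated exon begins.

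Of the 42 measured members, 35 had a RefSeq promoter window, and both strands of the 250 bases before each RefSeq start were searched. Distances are counted from that start. For Psma6 it lay 50 bases past the annotated exon start at which the printed sequence stops. Each member was represented by 1 window. The windows of all genes, 32851 for 27025 symbols, were neither limited to genes expressed here nor matched for their share of G and C bases. A higher share among members thus need not be particular to proteasome genes. An ETS motif, CCGGAAG, was present in 11 of the 35 members (31.4%) against 6.91% of the 32851 windows of all genes. It lay in 8 of 17 19S genes (47.1%), in 1 of 11 genes of the constitutive core (9.09%), which is Psma6 at 132 bases before the start, and in none of the 5 immunoproteasome genes. The NF-Y motif CCAAT was found in 34.3% of members and 33.8% of all windows, and in Psmd14 it lay 159 bases before the start in the other orientation. The antioxidant response element TGACNNNGC was present in 5 members (14.3%), including Psmb6 at 9 bases before the start, against 10.2% of all windows. The interferon-stimulated response element, searched as a pair of GAAA runs with 2 bases between them, was in 3 members (8.57% against 2.98%) but in no immunoproteasome gene within this window. The GAS motif TTCNNNGAA was in Psmb8 alone (2.86% of members against 7.02%). Among the immunoproteasome genes, the windows of Psmb8, Psmb9 and Psme1 lay inside the annotated gene. Their RefSeq starts were 405, 434 and 134 bases from those of the principal transcripts. The bases ahead of these annotated genes were thus not searched for any motif. All motif hits are matches of letters in short windows and say nothing of whether a factor binds.

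The first comparison asked what the WD does to ResKCs. At 12 weeks no member passed the test for the diet (0 of 42 by edgeR's quasi-likelihood test). At an unadjusted p under 0.05 there was 1 gene, Psmb4, a structural beta subunit, with a log2 fold change of 0.14, and DESeq2 and limma-voom also called 0. Among all genes 0.0373% were called. Member folds ran from -0.09 to 0.17 on the log2 scale with a median of 0.03, beside 0.02 for all genes tested. Psma6 was measured at 258 to 324 CPM (median 266) in the 7 SD samples and at 244, 290, 293, 298 and 323 CPM in the WD samples, so the groups overlapped throughout. Psmb8 lay at 195 to 270 CPM (median 222) in SD and at 169, 218, 218, 221 and 260 CPM in WD. Psmb9 lay at 155 to 251 CPM (median 193) in SD and at 142, 175, 177, 185 and 232 CPM in WD. For both immunoproteasome genes the groups overlapped.

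**Figure D1:**
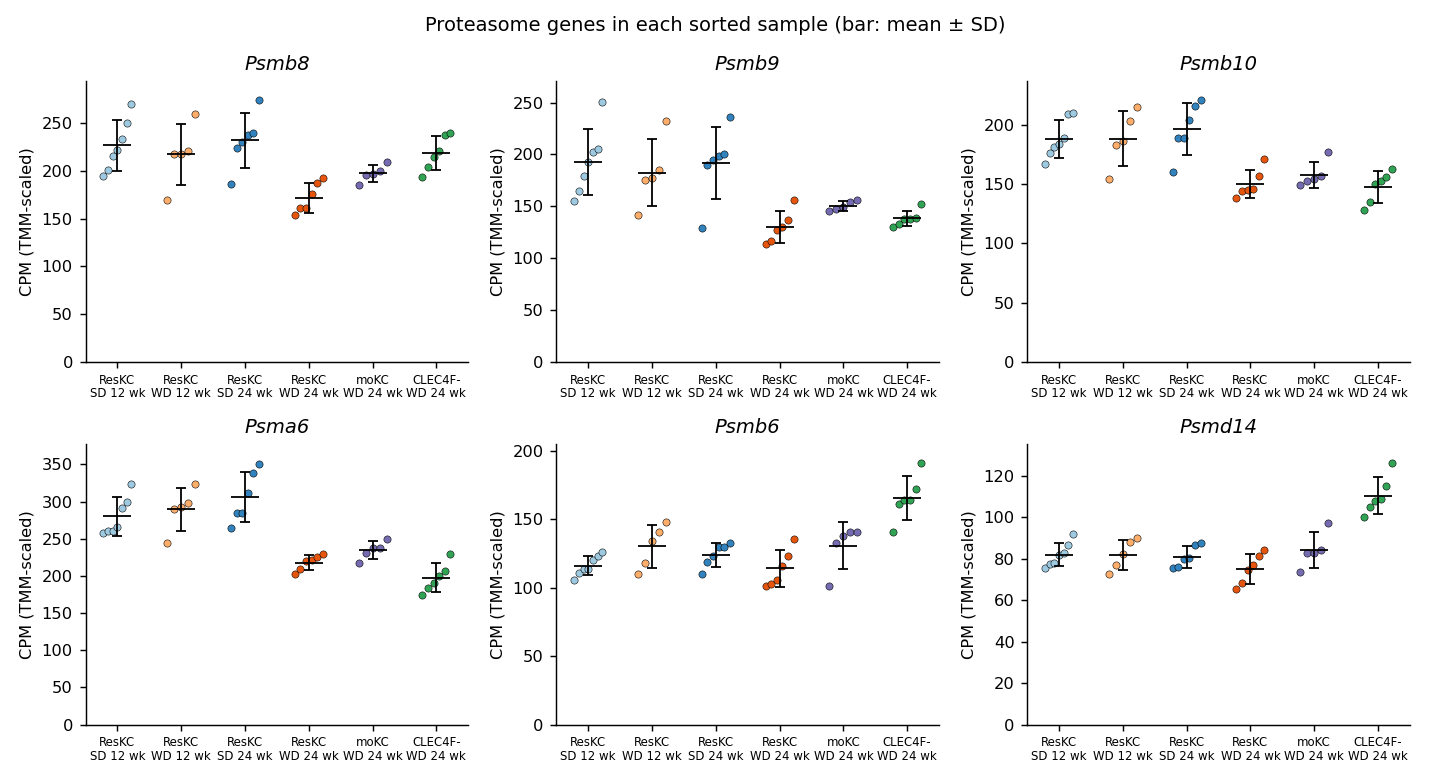
Level of 6 proteasome genes in CPM (vertical axes, from 0) in each sample of the 6 groups, with bars for the group mean ± SD. Psma6 is separated between SD and WD ResKCs at 24 weeks (265 to 351 against 203 to 229 CPM), and Psmd14 between CLEC4F- macs (100 to 126 CPM) and WD ResKCs (65.3 to 84.3 CPM).

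At 24 weeks 8 members were lower in WD than in SD ResKCs and 0 were higher, by edgeR's quasi-likelihood test, which also left 0 higher at an unadjusted p under 0.05. DESeq2 and limma-voom called 0 higher as well. Among all genes 3.87% were called lower and 4.84% higher. All 8 were core subunits, namely the 3 immunoproteasome beta genes, Psma5 and Psma6 of the alpha ring, and Psmb1, Psmb2 and Psmb3 of the beta ring. Of the 20 19S genes, 0 were called by edgeR, DESeq2 or limma-voom, and 0 passed an unadjusted p under 0.05 in edgeR. The median log2 fold change was -0.38 for the immunoproteasome genes, -0.25 for the alpha genes and -0.20 for the constitutive beta genes. It was -0.03 for the ATPases, -0.07 for the non-ATPases and 0.00375 for all genes tested.

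Psma6 fell the most clearly. Its levels were 265 to 351 CPM (median 298) in the 6 SD samples and 203 to 229 CPM (median 221) in the 6 WD samples. The groups did not overlap. Mean levels were 306 ± 34.0 CPM in SD and 218 ± 10.2 CPM in WD (± SD, 6 samples per diet). The fitted log2 fold change was -0.49 ± 0.07 (SE, adjusted p = 7.51e-05). The gene lies at chr12:55384222-55418454 on the plus strand (mm10), and it is the member whose promoter was printed with the ETS match.

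Psmb9, which carries the immunoproteasome's replacement for the caspase-like site, ranged from 129 to 236 CPM (median 196) in SD and from 114 to 156 CPM (median 128) in WD. The groups met at the lowest SD sample. Its log2 fold change was -0.56 ± 0.11 (adjusted p = 0.00192), the largest drop among the called members. Psmb8, the chymotrypsin-like immunoproteasome subunit, ranged from 186 to 274 CPM (median 233) in SD and from 154 to 192 CPM (median 168) in WD. Its log2 fold change was -0.43 ± 0.09 (adjusted p = 0.00253), and the groups overlapped at their edges. Psmb10, which replaces the trypsin-like subunit, ranged from 160 to 221 CPM (median 196) in SD and from 138 to 171 CPM (median 146) in WD. It fell by 0.38 ± 0.08 on the log2 scale (adjusted p = 0.00295), with overlap at the edges. Psmb8 and Psmb9 both lie in the MHC region of chromosome 17. Psmb9 shares 212 exon bases with Tap1 and Psmb8 shares 498 with the antisense gene Gm20496, each on the other strand. Psmb7 shares 405 with Nek6 on the other strand. Of the other members called in any comparison, Psmc3 shares 215 with Slc39a13, Psma4 114 with AY074887 and Psma5 60 with 1700010K24Rik, likewise on the other strand. The strand setting of the counting is not given in the sources used here, so reads from those stretches cannot be told apart.

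The remaining called members moved less. Psmb2 fell by 0.29 ± 0.07 on the log2 scale (adjusted p = 0.0085), from 203 ± 11.4 to 167 ± 8.33 CPM, and its groups did not overlap. Psma5 (-0.28), Psmb3 (-0.26) and Psmb1 (-0.24) had adjusted p-values of 0.0329, 0.0433 and 0.0403. The groups of 4 of the 42 members did not overlap (Psma2, Psma6, Psmb1 and Psmb2), with WD lower in each, against 1.91% of all genes. Psma2 itself, with a log2 fold change of -0.21, was not called (adjusted p = 0.0517). The constitutive counterparts of the immunoproteasome genes did not pass. Psmb5 stood at 48.5 ± 3.18 CPM in SD and 42.2 ± 6.82 in WD, Psmb6 at 124 ± 8.71 and 114 ± 13.5, and Psmb7 at 33.4 ± 2.26 and 33.2 ± 4.25.

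The PA28 genes did not pass either. Psme1 was at 199 to 251 CPM (median 225) in SD and 171 to 226 CPM (median 181) in WD, with a log2 fold change of -0.25 (adjusted p = 0.0593). Psme2 was at 133 to 211 CPM (median 170) and 135 to 160 CPM (median 142), with -0.26 (adjusted p = 0.0966). Both pairs of groups overlapped. The near-identical copy Psme2b, listed apart in the tables, held between 29.4% and 37.8% as many counts as Psme2 in every library, so the assignment of reads between the 2 is uncertain.

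**Figure D2:**
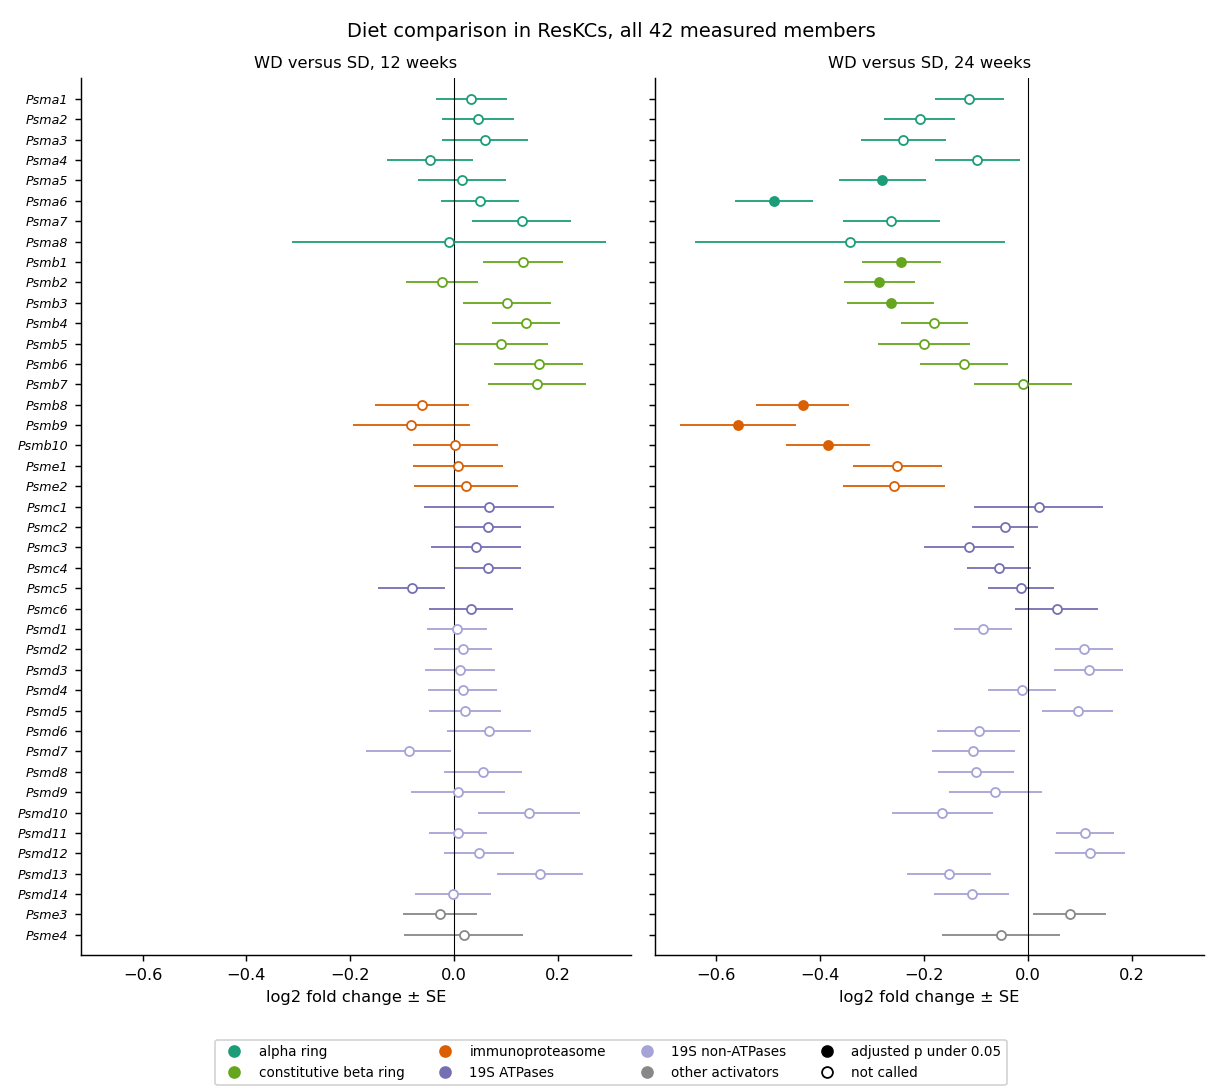
Log2 fold change ± SE of WD against SD ResKCs (horizontal axes, same range) for all 42 members at 12 weeks (left) and 24 weeks (right), coloured by part of the particle, with filled points for an adjusted p under 0.05. No point is filled at 12 weeks, and at 24 weeks the 8 filled points are core or immunoproteasome beta genes to the left of 0.

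Of the 8 calls, 5, those of Psma6, Psmb2, Psmb8, Psmb9 and Psmb10, were made in each of 10 alternative analyses without a fold limit and with any 1 of the 12 libraries left out. Those of Psma5, Psmb1 and Psmb3 were made in 5 of the 10, and all 3 were lost without SD replicate 1 or 2 or WD replicate 1, 2 or 3. No member passed a limit of 1 on the absolute log2 fold change, which the study's methods use, in this or any other comparison. With scaling by library size alone, 5 members were lower and 3 were called higher (Psmd2 0.18, Psmd3 0.20 and Psmd11 0.19, log2), where the median of all genes moved to 0.08. Other transcripts moved with the diet too. Immediate-early and heat-shock genes, which cells switch on within minutes of a stimulus or stress, had a median log2 fold change of -1.52, 6 of the 10 listed were lower, and their summed level was 1861 to 10170 CPM in SD and 853.2 to 3839 CPM in WD. Hepatocyte markers summed to 507.8 to 1506 CPM in SD and 1115 to 3484 CPM in WD, with 1 of 10 higher. Proliferation markers, with 2 of 5 higher, summed to 66.01 to 126.7 CPM in SD and 108.7 to 244.2 CPM in WD. Endothelial markers, with 1 of 6 lower, summed to 701.1 to 1573 and 475.3 to 896.3 CPM, and stellate cell markers, with 1 of 6 lower, to 58.56 to 176.5 and 33.63 to 99.64 CPM. The 4 macrophage markers, of which Lyz2 was lower, summed to 23340 to 27710 and 16950 to 22760 CPM. With either the immediate-early or the hepatocyte list as a covariate 5 members were called lower. With genes put into 5 classes by transcript length, the shortest class (up to 1573 bases, members left out) had a median of -0.09 against 0.04 in the longest. In these classes 7.64% and 1.42% of genes were called lower. The shortest class held 5 of 8 alpha, 6 of 7 constitutive beta and 4 of 5 immunoproteasome genes, but only 2 of 6 ATPases and 5 of 14 non-ATPases. The split between core and 19S genes thus ran partly along transcript length. With the level of short transcripts as a covariate, an alternative chosen after seeing the data, 8 members were called lower. With the naming scheme as a covariate 14 were called lower, and the count was 5 to 12 with 1 library left out. Within the first naming scheme, 3 WD against 6 SD samples, the mean log2 difference was -0.473 for Psma6, -0.601 for Psmb9, -0.496 for Psmb8 and -0.428 for Psmb10. Beyond these fits, the part of these lists in the result was not tested.

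Summed over genes, the constitutive core (14 genes) was at 1795 to 2185 CPM in the 6 SD samples and 1536 to 1775 CPM in the 6 WD samples at 24 weeks, without overlap. Psmb8, Psmb9 and Psmb10 together were at 475.6 to 731.5 CPM in SD and 413.1 to 519.1 CPM in WD, which overlapped. The 20 19S genes together stood at 1983 ± 37.2 CPM in SD and 1962 ± 93.8 CPM in WD. As a description, the log2 ratio of the summed core to the summed 19S level was taken. It lay between -0.268 and -0.159 in WD ResKCs at 24 weeks. In SD ResKCs at that time point it lay between -0.164 and 0.144, so that the groups met at 1 sample each. It averaged -0.121 in moKCs and -0.126 in CLEC4F- macs.

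**Figure D3:**
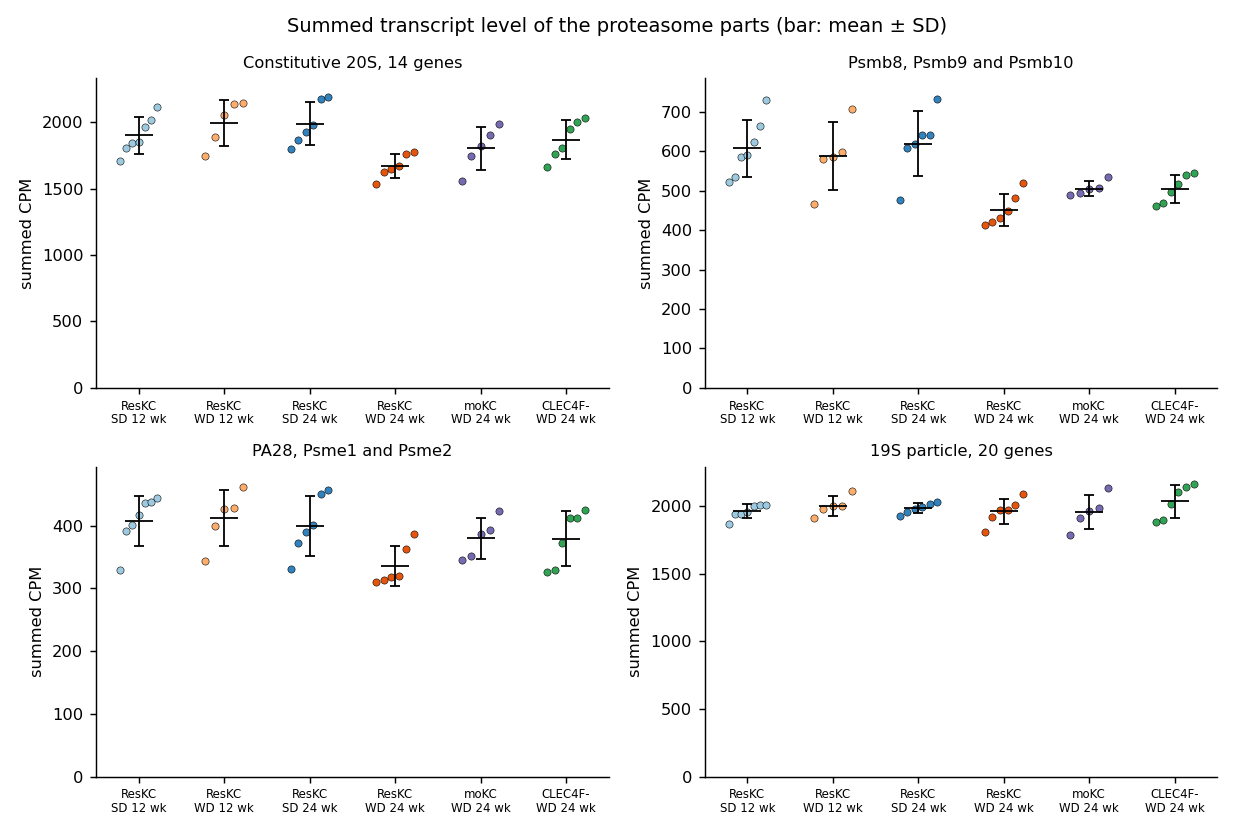
Summed CPM (vertical axes, from 0) of the constitutive 20S core, of Psmb8, Psmb9 and Psmb10, of the PA28 genes and of the 19S particle in each sample of the 6 groups, with bars for the mean ± SD. The core and the Psmb8 to Psmb10 sums are lowest in WD ResKCs at 24 weeks (means 1669 and 452.0 CPM), while the 19S means of all groups lie between 1957 and 2034 CPM.

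Whether the diet effect differed between the time points was tested as an interaction over all genes. It was called for 1 member, Psma6, whose diet effect was lower by 0.54 ± 0.11 on the log2 scale at 24 than at 12 weeks (adjusted p = 0.0195), where 0.283% of all genes were called. Another 16 members passed an unadjusted p under 0.05 in edgeR's quasi-likelihood test, and all were lower at 24 weeks. The share of all genes at that threshold is not given here, so this count is not read as particular to the members. The median difference was -0.37 for the immunoproteasome genes, -0.30 for the alpha genes and -0.29 for the constitutive beta genes, against -0.08 for the ATPases and -0.05 for the non-ATPases. Here too the shortest transcript class, members left out, was lower, with a median of -0.162 against 0.0066 in the longest. The part of transcript length in these medians was not tested. For the other 7 genes that fell at 24 weeks, a difference between the time points did not pass the adjusted test. The Psma6 call was lost without WD replicate 5 of 12 weeks, SD replicate 1 of 24 weeks or WD replicate 6 of 24 weeks, with an adjusted p of up to 0.0617 over the libraries left out and of 0.00116 to 0.132 over all alternatives.

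The time comparisons share samples with the diet comparisons and are given with their own values. In SD ResKCs no member was called between 12 and 24 weeks (0 of 42 by edgeR's quasi-likelihood test, 2 at an unadjusted p under 0.05, and 0 by DESeq2 and limma-voom), where 0% of all genes were called. Psmb3 (0.20) and Psmd13 (0.17, log2) were those 2. In WD ResKCs 7 members were lower at 24 than at 12 weeks and 0 were higher (edgeR's quasi-likelihood test, with 2 higher at an unadjusted p under 0.05, and 0 higher by DESeq2 and limma-voom), against 1.73% and 1.53% of all genes. Psma6 fell by 0.41 ± 0.08 on the log2 scale (adjusted p = 0.00612), Psmb9 by 0.49 ± 0.12 (adjusted p = 0.0212) and Psmb10 by 0.32 (adjusted p = 0.0288). The others were Psmb4 (-0.25), Psmb8 (-0.34), Psma7 (-0.35) and Psmb1 (-0.28). In the shortest transcript class, members left out, 4.29% of genes were called lower with a median of -0.136. In the longest class these values were 0.674% and 0.038. The groups did not overlap for 3 members (Psma2, Psma6 and Psmd10), each lower at 24 weeks, against 1.64% of all genes. Of the 7 calls, only that of Psma6 was made with any 1 of the 11 libraries left out. The count was 12 without WD replicate 1 of 12 weeks and 2 without WD replicate 3, 4 or 5 of 12 weeks or WD replicate 1, 2, 3 or 6 of 24 weeks.

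The exchange of immunoproteasome for constitutive subunits was read as the log2 ratio of counts of each replacing gene to the gene it replaces, in 15 exact permutation tests (two-sided, Benjamini-Hochberg adjusted over the 15). Psmb10/Psmb7 was 2.18 ± 0.123 in WD and 2.55 ± 0.165 in SD ResKCs at 24 weeks (SD, n = 6 each). All 6 WD samples were below all 6 SD samples (difference -0.364, exact permutation p = 0.00216, the smallest that 6 against 6 allows, adjusted p = 0.0162). Psmb9/Psmb6 was 0.188 ± 0.163 in WD and 0.604 ± 0.258 in SD (difference -0.416, exact permutation p = 0.013, adjusted p = 0.0325). It overlapped through SD replicate 6 at 0.111, where the other 5 SD samples lay at 0.608 to 0.828. Leaving out any 1 library other than SD replicate 6 gave adjusted p-values of 0.0541 to 0.0649 in the exact permutation test, so this difference passes only with all 12 samples or without that replicate. Psmb8/Psmb5 differed by -0.216 without passing (exact permutation p = 0.0563, adjusted p = 0.106). At 12 weeks the differences were -0.153, -0.24 and -0.158 for Psmb8/Psmb5, Psmb9/Psmb6 and Psmb10/Psmb7, and none passed (exact permutation, adjusted p = 0.22, 0.135 and 0.246). Within the first naming scheme the differences were -0.193, -0.365 and -0.187 at 12 weeks, in the same order, and -0.0954, -0.337 and -0.268 at 24 weeks. Whether the ratios' diet effect differed between the time points was not tested.

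Between populations of WD mice, Psmb9/Psmb6 was higher in both Kupffer cell populations than in CLEC4F- macs. It averaged 0.188 in ResKCs, 0.211 ± 0.24 in moKCs (n = 5) and -0.255 ± 0.147 in CLEC4F- macs (n = 6). The differences of 0.444 and 0.466 both had an exact permutation p of 0.00433 and an adjusted p of 0.0162. They passed with any 1 library left out, CLEC4F- replicate 4 included, over ranges of 0.402 to 0.502 and 0.362 to 0.512. Of these genes Psmb6 was called in both comparisons and Psmb9 in neither. Psmb10/Psmb7 was higher than in CLEC4F- macs by 0.18 in ResKCs (exact permutation adjusted p = 0.0325) and by 0.229 in moKCs (exact permutation adjusted p = 0.0162). The first of these had an adjusted exact permutation p of 0.0649 without ResKC replicate 1, 2, 3 or 5 or CLEC4F- replicate 1, 4 or 5. Psmb8/Psmb5 was lower by 0.176 in ResKCs and by 0.0503 in moKCs, and neither passed (exact permutation, adjusted p = 0.0788 and 0.31). None of the 3 ratios passed between ResKCs and moKCs, with differences of -0.126, -0.0228 and -0.0493 (exact permutation, adjusted p = 0.224, 0.861 and 0.626).

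**Figure D4:**
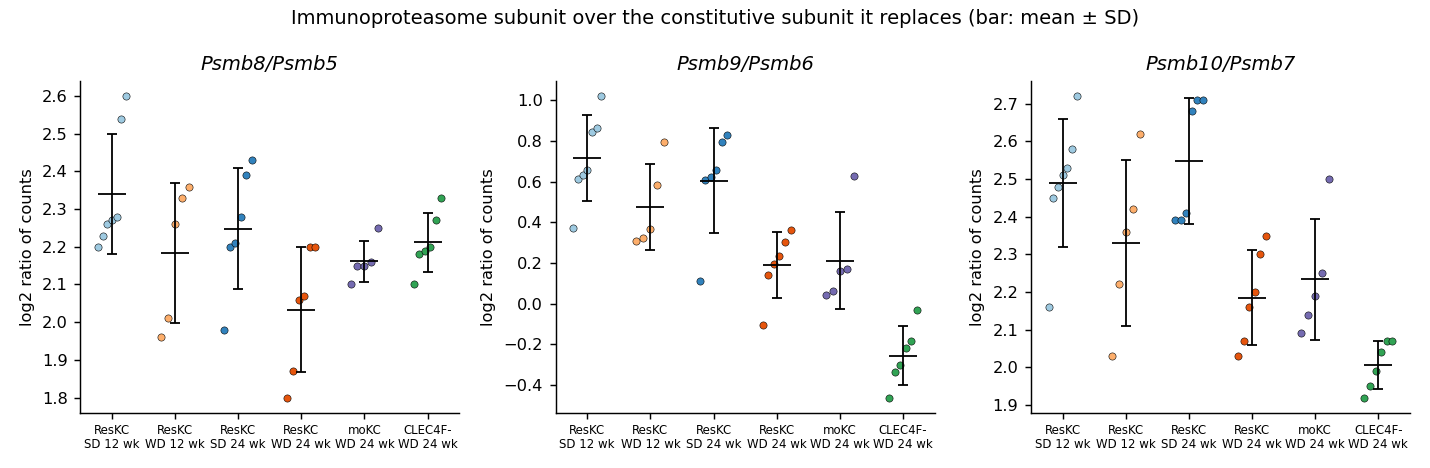
Log2 ratio of counts (vertical axes, not from 0) of Psmb8 to Psmb5, Psmb9 to Psmb6 and Psmb10 to Psmb7 in each sample of the 6 groups, with bars for the mean ± SD. CLEC4F- macs are lowest for Psmb9/Psmb6 (mean -0.255) and Psmb10/Psmb7 (mean 2.0), and WD ResKCs lie below SD ResKCs at 24 weeks for Psmb10/Psmb7 without overlap.

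The last comparisons asked how the macrophage populations of the fatty liver differ. Against CLEC4F- macs, 9 members were lower in WD ResKCs and 0 were higher (edgeR's quasi-likelihood test, with 1 higher at an unadjusted p under 0.05), against 16.1% of all genes lower and 17.0% higher. DESeq2 and limma-voom each called Psmc1, a 19S ATPase, higher, which had a log2 fold change of 0.31 and an adjusted p of 0.0527 in edgeR. The share of members lower (9 of 42) was thus not far above the background. The count was 17 without CLEC4F- replicate 2. Without CLEC4F- replicate 4 the same 9 were lower and Psmc1 was higher (0.42, adjusted p = 0.00593). The members' median log2 fold change was -0.13 beside -0.02 for all genes. In the shortest transcript class, members left out, the median was -0.105 and 20.3% of genes were called lower. In the longest class these values were 0.0069 and 13.9%.

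Psmd14, the 19S enzyme that cuts ubiquitin chains off substrates, differed most clearly. It was at 65.3 to 84.3 CPM (median 75.8) in ResKCs and at 100 to 126 CPM (median 108) in CLEC4F- macs, with moKCs at 73.6, 82.7, 83.0, 84.1 and 97.4 CPM. CLEC4F- macs lay above both Kupffer cell populations without overlap. The log2 fold change was -0.56 ± 0.07 for ResKCs (adjusted p = 2.41e-07) and -0.39 ± 0.08 for moKCs (adjusted p = 0.000288). Without CLEC4F- replicate 4 these values were -0.59 and -0.42. Within the first and the second naming scheme, 3 against 3 samples each, the ResKC difference was -0.638 and -0.481.

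Psmb6 was at 101 to 136 CPM (median 111) in ResKCs, at 141 to 191 CPM (median 164) in CLEC4F- macs, and at 101, 133, 138, 141 and 141 CPM in moKCs. ResKCs did not overlap with CLEC4F- macs. The log2 fold change was -0.54 ± 0.09 in ResKCs (adjusted p = 6.87e-06) and -0.34 ± 0.09 in moKCs (adjusted p = 0.00666), and without CLEC4F- replicate 4 it was -0.54 and -0.35. Psma4, an alpha ring subunit, was at 64.1 to 85.5 CPM in ResKCs and 91.1 to 107 CPM in CLEC4F- macs, again without overlap (-0.42 ± 0.08, adjusted p = 0.000121). The other calls were Psma1 (-0.31), Psmb1 (-0.31), Psmb8 (-0.35), Psmc6 (-0.28), Psma2 (-0.19) and Psmc3 (-0.22). The groups did not overlap for 5 members (Psma1, Psma4, Psmb6, Psmb8 and Psmd14), each lower in ResKCs, against 7.15% of all genes.

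Psmb8 was the 1 immunoproteasome gene called here, at 154 to 192 CPM in ResKCs and 194 to 240 CPM in CLEC4F- macs, with moKCs at 185 to 209 CPM. Psmb9 stood at 130 ± 15.1 CPM in ResKCs, 150 ± 4.62 in moKCs and 138 ± 7.48 in CLEC4F- macs. Psmb10 stood at 150 ± 12.0, 158 ± 11.1 and 147 ± 13.2 CPM in the same order. Psme1 stood at 189 ± 21.6, 217 ± 16.8 and 210 ± 26.4 CPM, and neither it nor Psme2, Psmb9 or Psmb10 passed in the 3 population comparisons.

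**Figure D5:**
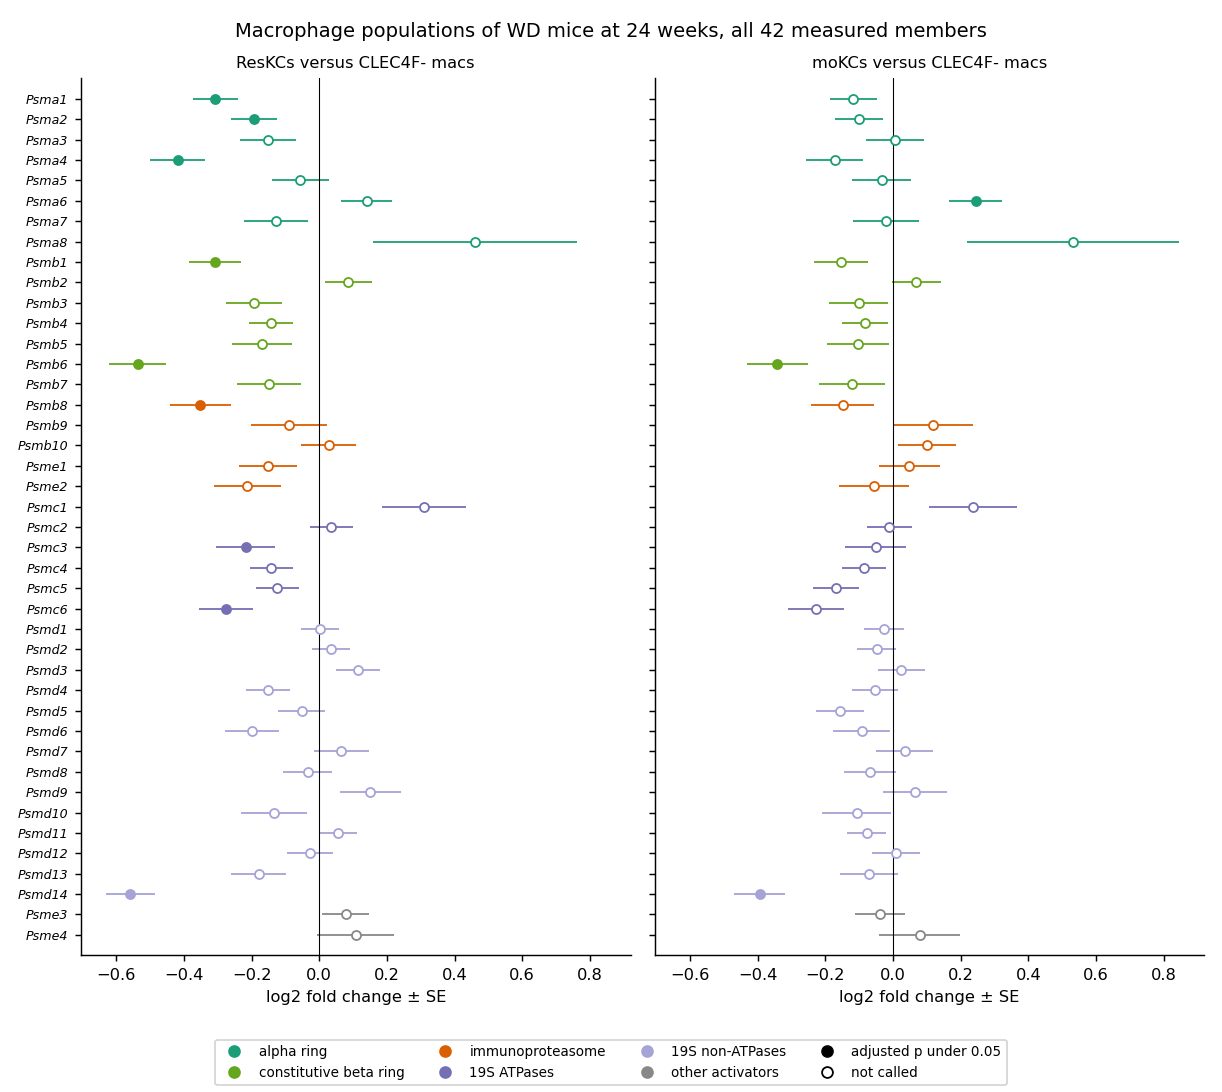
Log2 fold change ± SE (horizontal axes, same range) of all 42 members in WD ResKCs (left) and moKCs (right) against CLEC4F- macs at 24 weeks, coloured by part of the particle, with filled points for an adjusted p under 0.05. Psmd14 and Psmb6 lie farthest to the left in both panels, and Psma6 is the 1 filled point to the right of 0.

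Between moKCs and CLEC4F- macs, 1 member was higher (Psma6) and 2 were lower (Psmd14 and Psmb6), against 9.34% and 7.09% of all genes. The groups did not overlap for 1 member, Psmd14, which was lower in moKCs, against 3.96% of all genes. Psma6 was at 217, 231, 237, 237 and 250 CPM in moKCs and at 174 to 229 CPM (median 195) in CLEC4F- macs, and the groups overlapped (0.24 ± 0.08, adjusted p = 0.0275). Its call was lost with scaling by library size alone, with the compared groups alone and without 5 of the 11 libraries, with adjusted p-values of 0.00707 to 0.185 over all alternatives. Without CLEC4F- replicate 4 the same 3 members were called and Psmc1 was higher (0.35, adjusted p = 0.0466). Between ResKCs and moKCs no member was called (0 of 42 by edgeR's quasi-likelihood test, by DESeq2 and by limma-voom), where 2.99% of all genes were called. At an unadjusted p under 0.05, 1 member was higher and 6 were lower in ResKCs, among them Psma4 (-0.25) and Psme1 (-0.20).

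Scaling bears on the population comparisons. With library size alone, the median of all genes between ResKCs and CLEC4F- macs moved to -0.144 and 24 members were called lower. Transcripts of other cells differed too. Lymphocyte markers summed to 15.07 to 99.06 CPM in CLEC4F- macs and 5.187 to 7.641 CPM in ResKCs, and dendritic cell markers to 5.881 to 141.8 and 1.654 to 4.729 CPM. Of the stellate cell markers 3 of 6 were lower in ResKCs and 0 higher. In contrast, 2 of 6 endothelial and 1 of 10 hepatocyte markers were higher in ResKCs and 0 lower. The part of these transcripts in the members' levels was not tested. In bulk samples fewer cells of a type and less RNA per cell cannot be told apart.

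Genes that work with the proteasome were taken from fixed lists. In ResKCs at 24 weeks of WD, 4 of 12 genes of MHC class I peptide loading were lower and 0 higher (0 higher also at an unadjusted p under 0.05 in edgeR), against 3.87% and 4.84% of all genes. These were B2m, the light chain of MHC class I (-0.44, adjusted p = 0.000439), the heavy chains H2-D1 (-0.40) and H2-K1 (-0.35), and the peptide editor Tapbpl (-0.36). Of 14 assembly and associated genes 3 were lower, namely the assembly chaperones Psmg3 (-0.39) and Psmg4 (-0.43) and the small 19S subunit Sem1 (-0.25). Of 16 interferon response genes 1 was lower, Irf1 (-0.65), a transcription factor known to drive immunoproteasome genes, while the median of that list was 0.05. At 12 weeks 0 genes of these 3 lists were called by edgeR, with 2 assembly and 2 interferon response genes at an unadjusted p under 0.05.

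Against CLEC4F- macs, ResKCs had 4 of 12 MHC class I loading genes higher and 0 lower (1 lower at an unadjusted p under 0.05 in edgeR), against 17.0% and 16.1% of all genes, with H2-D1 at 0.43 and Tapbpl at 0.34. Nfe2l1, the transcription factor that drives proteasome genes when the particle is impaired, was higher by 0.51, and the proteasome adaptor Ecpas by 0.38. The core maturation factor Pomp and Sem1 were both lower, each with a log2 fold change of -0.21. The ubiquitin fusion gene Rps27a was lower (-0.62). Of the interferon response genes Irf7 (1.01) and Rsad2 (0.34) were higher and Isg15 (-0.76) was lower. In moKCs against CLEC4F- macs, H2-D1 (0.33), Nfe2l1 (0.42) and 5 of 16 interferon response genes (against 9.34% of all genes) were higher, among them Irf7 (0.82) and Irf1 (0.62), and Rps27a was lower (-0.36).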

How the data were processed

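The 35 libraries were bulk RNA-seq of sorted liver macrophages, and the authors deposited whole-number read counts per gene symbol for each sample, not normalized. Per the submitters' processing notes these were made with FastQC 0.11.9, HISAT2 2.2.0, SAMtools 1.10 and featureCounts 2.0.0 on mm10. Strand, annotation and multi-mapping settings are not given in the sources used here. Counts ran from 11568590 to 15163845 per library, and floors of 3 counts cover counting error only.

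Genes over 1 CPM in at least 5 of 35 libraries (13421) were fitted with edgeR 4.0.16 (R 4.3.3, TMM factors, quasi-likelihood, 6 group means), and Benjamini-Hochberg p-values were adjusted over all of them. A call is an adjusted p under 0.05 with no fold limit. Fold changes are the fit's log2 values, and CPM values in the text are scaled by TMM. Ratios of counts were compared with exact permutation tests (scipy 1.17.1). Alternatives were DESeq2 1.42.0, limma-voom (limma 3.58.1), scaling by library size, no filter, the compared groups alone, covariates for the header naming scheme and for immediate-early, hepatocyte and (added after seeing the data) short transcripts, a replicate block, and each library left out. The scripts were tested on simulated data. No 2 replicates agreed within sampling noise.

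Full values are given for the immunoproteasome genes, Psmb5, Psmb6 and Psmb7, and up to 3 called members with the lowest p in each direction. Other members are named where called, and any named beyond that were chosen after their values were seen. From each list of other genes up to 3 with the lowest p in each direction are named. The members, lists and tests were chosen with earlier results of these data known. Level per kb uses the principal transcript's length. A result of the ubiquitin supply list is not reported here.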

Additional observations from a re-analysis of the deposited data

Results flagged for a closer look

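Among 150 groups of 4 to 10 samples tested over 22 members and 3 ratios, 8 held a sample far from the rest, where chance gives about 1 in 20. In moKCs, replicate 1 stood apart for Psma8 (15.9 CPM against 2.38 to 4.41), for Psmb6 (101 CPM against 133 to 141) and for log2 Psmb9/Psmb6 (0.627 against 0.0401 to 0.169), and replicate 3 for Psmb10 (177 CPM against 149 to 157). In WD ResKCs at 24 weeks, replicate 3 was low for Psma2 (123 CPM against 136 to 143) and replicate 4 high for Psma5 (98.0 CPM against 82.4 to 88.1). In WD ResKCs at 12 weeks replicate 3 was high for Psmc6 (80.5 CPM against 65.8 to 68.7). In SD ResKCs at 24 weeks replicate 6 was low for log2 Psmb9/Psmb6 (0.111 against 0.608 to 0.828). Separately, the effect of the WD on Psma6 in ResKCs differed between 24 and 12 weeks by -0.539 on the log2 scale in the interaction test.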

How the results depend on the processing

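No result changed direction and passed the threshold in any alternative run. The number of members called moved by over 1.5 times as follows. With library size alone it was 24 between ResKCs and CLEC4F- macs, 8 between moKCs and CLEC4F- macs and 3 between WD ResKCs at 24 and 12 weeks. Without a filter it was 5 for the diet at 24 weeks, 2 for WD ResKCs over time and 0 for the interaction. With the naming scheme as a covariate it was 14 for the diet at 24 weeks and 3 for the interaction. With the immediate-early or the hepatocyte covariate it was 5 for the diet at 24 weeks. With the short-transcript covariate, chosen after seeing the data, it was 1 for WD ResKCs over time and 0 for the interaction, and with the compared groups alone it was 1 for WD ResKCs over time. With the study's limit on the fold it was 0 in all comparisons. The cause of these moves was not tested.

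The main tests took the samples as unpaired. In no comparison did the deviations of every same-numbered pair correlate above 0.1 (mean correlations of -0.112 to 0.118). All pairs were above 0 for ResKCs with CLEC4F- macs (lowest 0.0242) and for WD ResKCs over time (lowest 0.039). The closest was ResKCs with CLEC4F- macs, where 5 of 6 samples correlated best with their own number. Same-numbered samples of these populations may thus share an animal, which the main tests do not take into account. With a replicate block the number of members called was 5 for the diet at 24 weeks, 0 between moKCs and CLEC4F- macs, 0 for WD ResKCs over time and 0 for the interaction. Between WD ResKCs and CLEC4F- macs, the calls of Psmd14, Psmb6, Psma4, Psma1, Psmb1, Psmb8, Psmc6 and Psma2 were also made with this block. Of the main calls there, only that of Psmc3 was lost with it. Over pairs, Psmb9/Psmb6 differed by -0.416 for the diet at 24 weeks, 0.444 and 0.425 for ResKCs and moKCs against CLEC4F- macs and 0.0356 between ResKCs and moKCs, and Psmb10/Psmb7 by -0.364, 0.18 and 0.242 for the first 3. None passed after adjustment, and 6 pairs cannot give an exact p below 0.03125 nor 5 pairs one below 0.0625. Replicate 3 of the moKCs carried the second naming scheme, while replicate 3 of the WD ResKCs at 24 weeks and of the CLEC4F- macs carried the first. Matching moKCs by number may therefore not join samples of 1 animal, and their block and pair values cannot decide whether pairing matters.

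Leaving out 1 library gave 5 to 12 members for the diet at 24 weeks, 7 to 17 between ResKCs and CLEC4F- macs, 0 to 1 between ResKCs and moKCs (1 without moKC replicate 1), 2 to 12 for WD ResKCs over time and 0 to 2 for the interaction (2 without WD replicate 1 of 12 weeks). Psmb8/Psmb5 ranged from -0.270 to -0.170 for the diet at 24 weeks (adjusted exact p = 0.0278 without SD replicate 6) and from -0.21 to -0.130 between ResKCs and CLEC4F- macs (0.0464 without ResKC replicate 2 or 3). Psmb9/Psmb6 ranged from -0.320 to -0.189 for the diet at 12 weeks (0.0278 without WD replicate 4), from -0.514 to -0.357 at 24 weeks and from -0.0656 to 0.0813 between ResKCs and moKCs. Psmb10/Psmb7 ranged from 0.148 to 0.210 between ResKCs and CLEC4F- macs and from -0.0843 to 0.0173 between ResKCs and moKCs.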
